A study of Homo sapiens and Mus musculus with 9 samples.

Results

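Genes of the cytosolic ribosomal proteins were examined in a study that applied eCLIP, in which RNA crosslinked to a protein is immunoprecipitated and sequenced, to the pregnane X receptor (PXR). PXR is a nuclear receptor that switches on drug-clearing genes after it binds foreign compounds and bile acids. The genes were chosen by symbol in RefSeq: RPL or RPS followed by a number, the stalk genes RPLP0, RPLP1 and RPLP2, and RPSA. This gave 79 of 20037 protein-coding genes, 46 of the large subunit and 33 of the small. No measured value entered the choice of members, although earlier results of these data were known.

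The series held 9 samples. LS174T, a human colorectal adenocarcinoma line, gave a wild-type input, a wild-type immunoprecipitate (IP) with a PXR antibody and the same IP from PXR-knockout cells, 1 library each. HepG2, a human hepatocellular carcinoma line, gave 1 input and 2 IPs with an antibody to the HA tag. Liver of mice that carry human PXR gave the remaining 3 samples and was not analysed here. All material was crosslinked with UV light at 254 nm and 400 mJ/cm2 and digested with RNase I. How many knockout clones were used, and how the HA tag was brought into HepG2 cells, the sources used here do not say.

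The data were lists of peaks, so a gene without a peak has no value, and no list held values per library. One LS174T list is linked in the record to the wild-type input and the other to the wild-type IP, whereas their own names and their peak names read WT and KO. They are named here after their peak names, as WT-named and KO-named, and which library each holds is not settled, so a difference between them cannot be read as one of genotype or of IP over input. The HepG2 list stands for 2 IP libraries, and whether these were pooled was not stated. With 1 list per condition there was no spread between replicates, so no test between conditions was possible. The WT-named list held 2103 peaks, the KO-named list 46 and the HepG2 list 1557, with medians of 11, 19 and 9 reads at the summit. Reads were worked out from the deposited fold and p-value, are raw and not scaled for depth, and their intervals cover counting error only. Of 13 colon epithelium markers 8 had a peak in the WT-named list, 2 (CDH17 and EPCAM) in the HepG2 list and 0 in the KO-named list. Of 12 hepatocyte markers, ALB included, 0 had a peak in any of the 3, where 6.43% of protein-coding genes had a WT-named, 4.9% a HepG2 and 0.0848% a KO-named peak.

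Ribosomal proteins assemble with ribosomal RNA into a large subunit, which joins amino acids, and a small subunit, which reads the messenger RNA. Their messenger RNAs are among the most abundant in dividing cells. Most begin with a C followed by a run of pyrimidines, the 5′ terminal oligopyrimidine or TOP motif, through which growth signals control their translation. Their genes are short and host many small nucleolar RNAs in introns, and reverse-transcribed copies of their messenger RNAs have left a large number of processed pseudogenes in the genome.

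In the WT-named list, 11 member peaks began within 10 bp downstream of an annotated transcription start. The starts are printed because the peak edge lay on them and because they carry the pyrimidine run. Each line gives the 30 bases from 10 before the start onwards, in the direction of transcription, from the RefSeq promoter table for GRCh38.p14, and capitals mark the run of C and T at the start.
RPLP1, chr15:69452808-69452837, plus strand: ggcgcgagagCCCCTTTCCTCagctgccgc
RPS12, chr6:132814559-132814588, plus strand: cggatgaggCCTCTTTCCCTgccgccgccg
RPS16, chr19:39435930-39435959, minus strand: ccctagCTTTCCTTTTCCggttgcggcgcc
RPLP2, chr11:809957-809986, plus strand: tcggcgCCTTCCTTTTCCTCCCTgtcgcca
RPS6, chr9:19380217-19380246, minus strand: gaagttggCCCTCTTTTCCgtggcgcctcg
RPL35, chr9:124861938-124861967, minus strand: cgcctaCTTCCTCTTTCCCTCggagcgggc
RPL12, chr9:127451387-127451416, minus strand: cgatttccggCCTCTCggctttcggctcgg
RPSA, chr3:39406710-39406739, plus strand: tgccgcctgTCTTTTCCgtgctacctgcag
RPS25, chr11:119018324-119018353, minus strand: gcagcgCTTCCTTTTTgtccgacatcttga
RPL24, chr3:101686699-101686728, minus strand: atgaTTCTCTCTTTCTTTTCgccatctttt
RPS10, chr6:34426050-34426079, minus strand: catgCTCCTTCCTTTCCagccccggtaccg

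In the WT-named list 51 of 79 members (64.6%) held a peak, against a background of 6.43% of all protein-coding genes. The HepG2 list had 21 such members (26.6%), against 4.9%, and in the KO-named list 5 (6.33%), against 0.0848%. Members are short, with a median span of 5015 bp against 24120 bp for protein-coding genes. Expression was not measured in these lists, and the part of expression or length in the counts was not tested. Both subunits were present in each list: 32 of 46 large-subunit genes and 19 of 33 small-subunit genes in the WT-named list, 13 and 8 in the HepG2 list, and 2 and 3 in the KO-named list.

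Depth at the members also differed from that of other genes. The deepest WT-named peak of a member held a median of 21 reads, from 4 at RPS10 to 118 at RPLP1, against a median of 10 in 1237 other protein-coding genes with a peak. The HepG2 median was 15, from 7 at RPS27A to 75 at RPS2, against 10 in 960 other genes. In the KO-named list it was 17 over 5 members, from 11 to 33, against 19.5 in 12 other genes. By subunit, the WT-named medians were 20.5 for the large and 29 for the small subunit, while the HepG2 medians lay close together at 15 and 15.5. At least 20 reads stood behind 30 of the 51 WT-named members but only 7 of the 21 HepG2 members, and 7 and 4 members rested on under 10 reads. Counts at these cut-offs were not made for other genes.

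**Figure D1:**
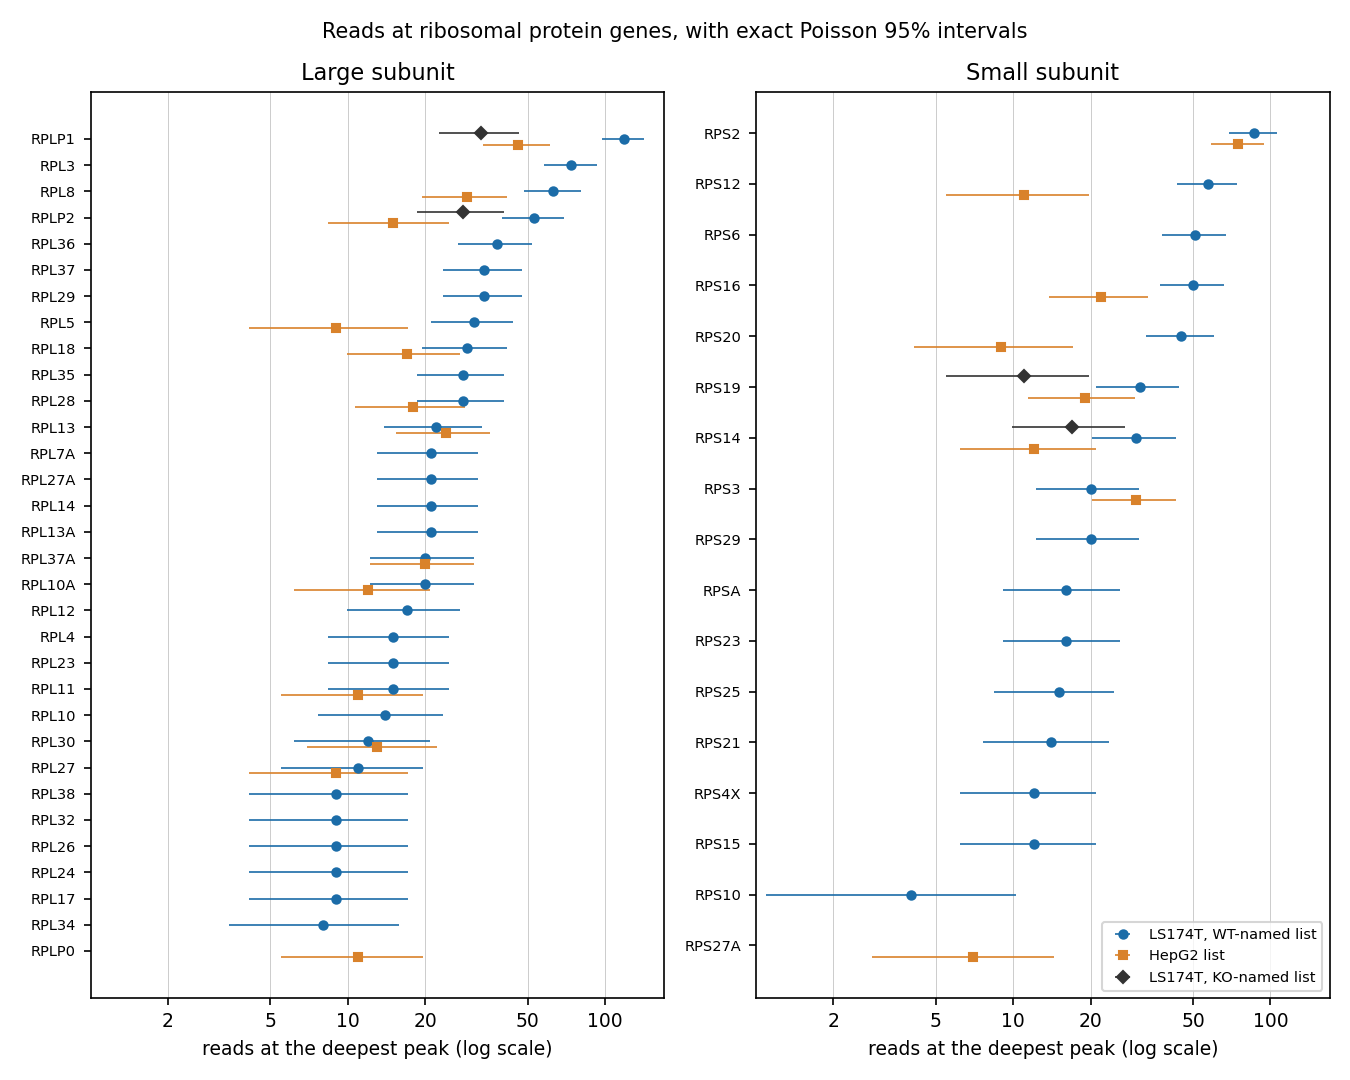
Reads at the deepest peak of each ribosomal protein gene that had one, on a log axis, for the large subunit (left) and the small subunit (right); points are the lists and bars are exact Poisson 95% intervals, which cover counting error only; a few members are not drawn. RPLP1 with 118 and RPS2 with 86 reads lead the WT-named list, and RPLP0 and RPS27A have a HepG2 point without a WT-named one.

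RPLP1 and RPLP2 encode proteins of the ribosomal stalk, which recruits the translation factors that hydrolyse GTP, and both had a peak in all 3 lists, as did RPS14 and RPS19. RPLP1, the deepest member of the WT-named and KO-named lists, held 118 reads in the WT-named list (95% interval 97.7 to 141), 46 in the HepG2 list (33.7 to 61.4) and 33 in the KO-named list (22.7 to 46.3). The HepG2 and KO-named intervals overlapped each other and neither reached the WT-named one. All 3 peaks stood on the start of the gene, the WT-named one at chr15:69452824-69453102, and began 5 or 6 bp past the start printed above. A further WT-named peak of 22 reads lay downstream.

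RPLP2 held WT-named peaks of 25, 28 and 53 reads, at 0.053, 0.141 and 0.927 of its length from start to end. Its KO-named peak of 28 reads was at the middle of these sites and its HepG2 peak of 15 reads at the last, so the deepest site was not the same in the 3 lists. RPLP0, the protein that anchors the stalk to the large subunit, had 11 HepG2 reads and no peak in either LS174T list.

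Among other large-subunit genes, RPL3 and RPL8, whose proteins lie near the peptidyl transferase centre, followed in the WT-named list. RPL3 held peaks of 74, 29 and 32 reads and no peak in the other lists. RPL8 held WT-named peaks of 63, 63 and 41 reads, and 29 reads in the HepG2 list at the same place as one of the deeper sites. A further HepG2 summit of 27 reads in the span of RPL8 lay at the microRNA gene MIR6850 and was counted there. Its peak lay within the bounds of the other WT-named peak of 63 reads, which was counted for RPL8. RPL36 (38 and 22 reads), RPL37 (34) and RPL29 (34) were deep in the WT-named list and had no peak elsewhere.

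RPL5 and RPL11 carry the 5S ribosomal RNA and, when ribosome assembly fails, bind MDM2 and so stabilise p53. RPL5 held 31 and 11 reads at WT-named peaks and 9 in the HepG2 list, and RPL11 held 15 and 11. RPL28 held WT-named peaks of 28 and 19 reads, and its HepG2 peak of 18 reads matched the shallower site. RPL37A held WT-named peaks of 20 and 11 reads and a HepG2 peak of 20. RPL13, RPL18 and RPL10A held 22, 29 and 20 WT-named reads and 24, 17 and 12 HepG2 reads, while RPL27 and RPL30 held 11 and 12 against 9 and 13. Apart from RPL5, whose intervals (21.1 to 44.0 and 4.12 to 17.1) did not meet, the intervals of these genes overlapped between the lists.

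In the small subunit RPS2, whose protein lines the channel where messenger RNA enters, had 86 WT-named reads at its deeper peak and 75 HepG2 reads, with overlapping intervals (68.8 to 106 and 59.0 to 94.0). It was the deepest member of the HepG2 list and had no KO-named peak. A second WT-named peak of RPS2 held 23 reads. RPS3, its neighbour in that channel, was 1 of 3 shared members with more HepG2 than WT-named reads: 30 and 19 at its pair of HepG2 peaks, 18 and 20 at the WT-named ones.

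RPS6, the substrate of the S6 kinases, held 4 WT-named peaks, the most of any member, with 23, 51, 35 and 27 reads from the start of the gene to its end. No peak was listed for it in the other lists. RPS12 (57 and 25 WT-named reads, 11 HepG2), RPS20 (45 and 9) and RPS16 were deeper in the WT-named list. RPS16 held 50 reads at its start and 32 near its end in the WT-named list, and 22 and 15 at the same sites in the HepG2 list, so the order of the sites was kept.

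RPS19, the gene most often mutated in Diamond-Blackfan anaemia, held 31 WT-named reads at its deeper peak, 19 HepG2 reads and 11 KO-named reads at 1 shared site, and a further 11 WT-named reads nearer its start. RPS14, whose loss underlies the anaemia of the 5q deletion syndrome, held 30 and 20 WT-named reads and 17 KO-named reads at the deeper of these sites. Its HepG2 peak of 12 reads lay at a different site.

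More than 1 peak was called in 22 members of the WT-named list. Besides those described, these included RPL13A with 21 and 20 reads, RPL35 with 28 and 19, RPL38 with 9 and 8, and RPSA, also known as the laminin receptor, with 16 and 12. In the HepG2 list the members with more than 1 peak were RPS3 and RPS16, and in the KO-named list there were 0. The HepG2 summit at MIR6850, in the span of RPL8, was not counted for RPL8 in this. In all, 51 members held 78 WT-named peaks, against 1619 peaks in 1237 other protein-coding genes. In the HepG2 list 21 members held 23 peaks, against 1060 in 960 other genes. How many of the other genes had more than 1 peak was not counted. Members with a single WT-named peak that are not described above held 4 to 21 reads. In RPL23, a further WT-named summit of 32 reads lay at SNORA21, an intronic small nucleolar RNA gene, and was counted there, leaving RPL23 with 15.

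Peaks with a known gene strand lay on that strand at 60 of 60 member peaks in the WT-named list, 18 of 18 in the HepG2 list and 4 of 4 in the KO-named list. In other protein-coding genes the counts were 1253 of 1324 (94.6%), 753 of 873 (86.3%) and 12 of 12. The table that gave strands covered 64 of the 79 members, and RPS2, RPL8, RPL5 and RPS20 were among the 15 it lacked.

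Between cell lines, 19 members were in both the WT-named and the HepG2 list, 12 of the large and 7 of the small subunit, against 2.22% of all protein-coding genes in both. They made up 37.3% of the WT-named members, near the 34.5% of all protein-coding genes with a WT-named peak that also had a HepG2 peak, and 90.5% of the HepG2 members, against 45.3% of protein-coding genes with a HepG2 peak. The 2 HepG2 members outside the WT-named list were RPLP0 with 11 reads and RPS27A, which encodes a fusion of ubiquitin with a ribosomal protein, with 7. In the 19 shared members the ratio of WT-named to HepG2 reads at the deepest peak ran from 0.667 at RPS3 to 5.18 at RPS12, with a median of 1.67 (95% interval of the median 1.15 to 2.57). That interval is taken over the 19 genes, which are not replicates. In 425 other protein-coding genes of both lists the median ratio was 1.0, with quartiles of 0.684 and 1.70. The upper quartile of other genes lay at about the members' median, so the distributions overlapped.

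The ratio exceeded 1 beyond counting error in 8 of the 19: RPS12, RPS20, RPLP2, RPL5, RPLP1, RPS14, RPS16 and RPL8. How many of the 425 other shared genes had such an interval was not counted. Member peaks were deeper than those of other genes, which narrows the interval, so 8 of 19 cannot be called unusual. The interval was 2.69 to 11.0 at RPS12, 2.41 to 11.6 at RPS20 and 1.81 to 3.69 at RPLP1. In 0 of 19 did it lie below 1, and at RPS3 it was 0.359 to 1.21. At RPS3, RPS14, RPL28 and RPL30 the deepest peaks of the 2 lists were at different sites, so these ratios compare genes rather than sites. Cell line, depth and the number of libraries behind each list cannot be told apart in these ratios. Nor can antibody or IP against input, since which library the WT-named list holds is not settled.

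Of 23 HepG2 member peaks 19 overlapped a WT-named peak on the same strand (82.6%, exact binomial 95% interval 61.2 to 95.1), against 39.2% of all HepG2 peaks in protein-coding genes. These shares also count genes without a WT-named peak. Within genes that had a peak in both lists, 19 of 21 member peaks overlapped (90.5%, 69.6 to 98.8) and 406 of 494 in other protein-coding genes (82.2%, 78.5 to 85.5), with 82.5% over all, so the members lay near the background in this. The overlapping summits were a median of 12 bp apart, 15 of 19 within 25 bp, and the farthest, at RPLP2, was 79 bp. The 4 peaks without overlap were in RPLP0, RPS27A, RPS14 and RPL30, and the latter pair had WT-named peaks elsewhere in the gene.

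All 5 KO-named member peaks overlapped a WT-named peak, as did all 19 KO-named peaks in protein-coding genes (100%). They were 9.80% of the WT-named members, against 1.32% of protein-coding genes with a WT-named peak. Their summits were a median of 6 bp apart and at most 27 bp. At these sites the WT-named list held 118 reads against 33 at RPLP1, a ratio of 3.58 (2.41 to 5.43), and 31 against 11 at RPS19 (2.82, 1.38 to 6.21). RPS14 held 30 against 17, a ratio of 1.76 with an interval of 0.943 to 3.41. RPLP2 held 28 reads in both lists at this site, a ratio of 1.0 (0.571 to 1.75). These sites thus ranged from equal depth to a difference beyond counting error. At 14 other KO-named sites in protein-coding genes the median ratio was 5.09, from 0.585 to 470.3.

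The KO-named members were not simply the deepest WT-named ones. Of the 46 WT-named members without a KO-named peak, 14 held at least 29 WT-named reads, RPS2, RPL3, RPL8, RPS12, RPS6, RPS16 and RPS20 among them. Of the 5 KO-named peaks 2, in RPLP1 and RPS19, also overlapped a HepG2 peak, against 68.4% of KO-named peaks in protein-coding genes.

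Along the gene, WT-named and HepG2 member peaks were found in all parts of the span but were most frequent towards the start. The span of members with a known strand was cut into equal start, middle and end parts. These held 30, 12 and 18 of 60 WT-named member peaks, and 10, 4 and 4 of 18 HepG2 ones. In other protein-coding genes they held 702, 164 and 458 of 1324 WT-named peaks, and 526, 125 and 222 of 873 HepG2 peaks. Over 60 WT-named peaks in the 40 members with a known strand, the median summit lay at 0.331 of the span from start to end (95% interval over peaks 0.175 to 0.449). Of these, 14 (23.3%) lay within 300 bp of the gene's start, 7 (11.7%) within 300 bp of its end and 39 (65.0%) in neither. Medians were 0.327 for the 37 large-subunit and 0.334 for the 23 small-subunit peaks. In 1324 peaks of other protein-coding genes the median was 0.256, with 29.8% near the start and 9.37% near the end, and since these genes are longer the windows cover less of them. Over 18 HepG2 member peaks the median was 0.248 (0.138 to 0.588), against 0.116 in 873 other peaks. Exons, introns and untranslated regions could not be assigned with the gene table used.

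**Figure D2:**
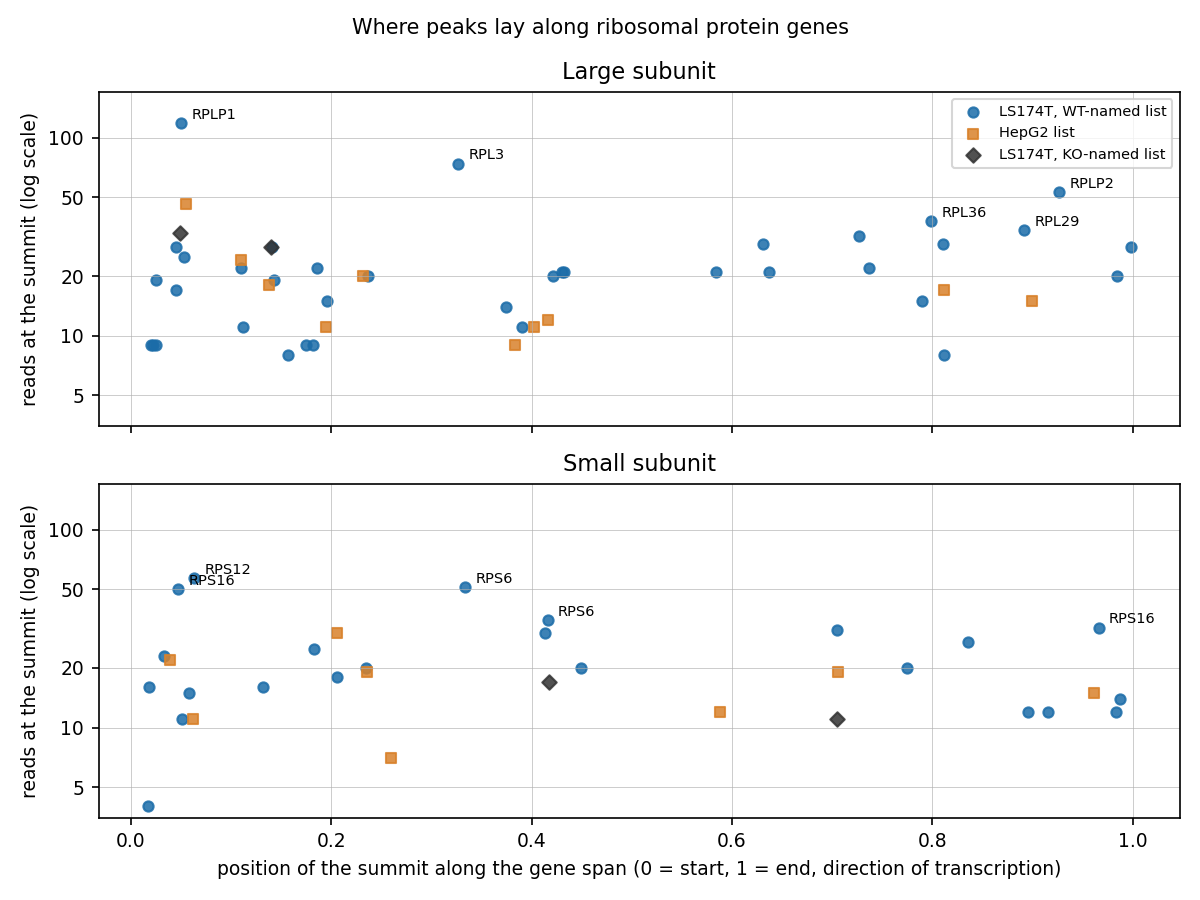
Reads at the summit (log axis) against the position of the summit along the gene span, from 0 at the start to 1 at the end, for large-subunit (top) and small-subunit genes (bottom) with a known strand; each point is a peak. The 60 WT-named peaks cover the whole span, and RPLP1, the highest point with 118 reads, lies close to the start.

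Close to the start, member peaks differed in where they began. Of 60 WT-named member peaks 11 (18.3%, exact binomial 95% interval 9.52 to 30.4) had their upstream edge 0 to 10 bp past an annotated start, against 15 of 1324 (1.13%, 0.635 to 1.86) in other protein-coding genes. Over all protein-coding genes together the share was 1.88%. The HepG2 counts were 3 of 18 members (16.7%, 3.58 to 41.4) and 5 of 873 others (0.573%), with 0.898% over all. The KO-named counts were 1 of 4, which was RPLP1, and 0 of 12, with 6.25% over all. The window was not planned and was chosen after seeing the data. Peaks in a gene share its library and several come from the same gene, so these shares are descriptions.

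The difference was also seen among peaks near a start. Of WT-named peaks whose summit lay within 300 bp of the gene's start, 11 of 14 member peaks began in this narrow window, against 14 of 394 in other genes. For HepG2 they were 3 of 3 and 4 of 274. The WT-named members with such an edge were those printed above, with edges from 0 bp at RPS12 to 8 bp at RPL24 and depths from 4 reads at RPS10 to 118 at RPLP1. RPS12, RPS16 and RPLP1 had such a peak in the HepG2 list too, with edges 4, 10 and 5 bp past the start. The edge is that of a called peak after the caller's extension of reads, so it marks a read end only approximately.

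**Figure D3:**
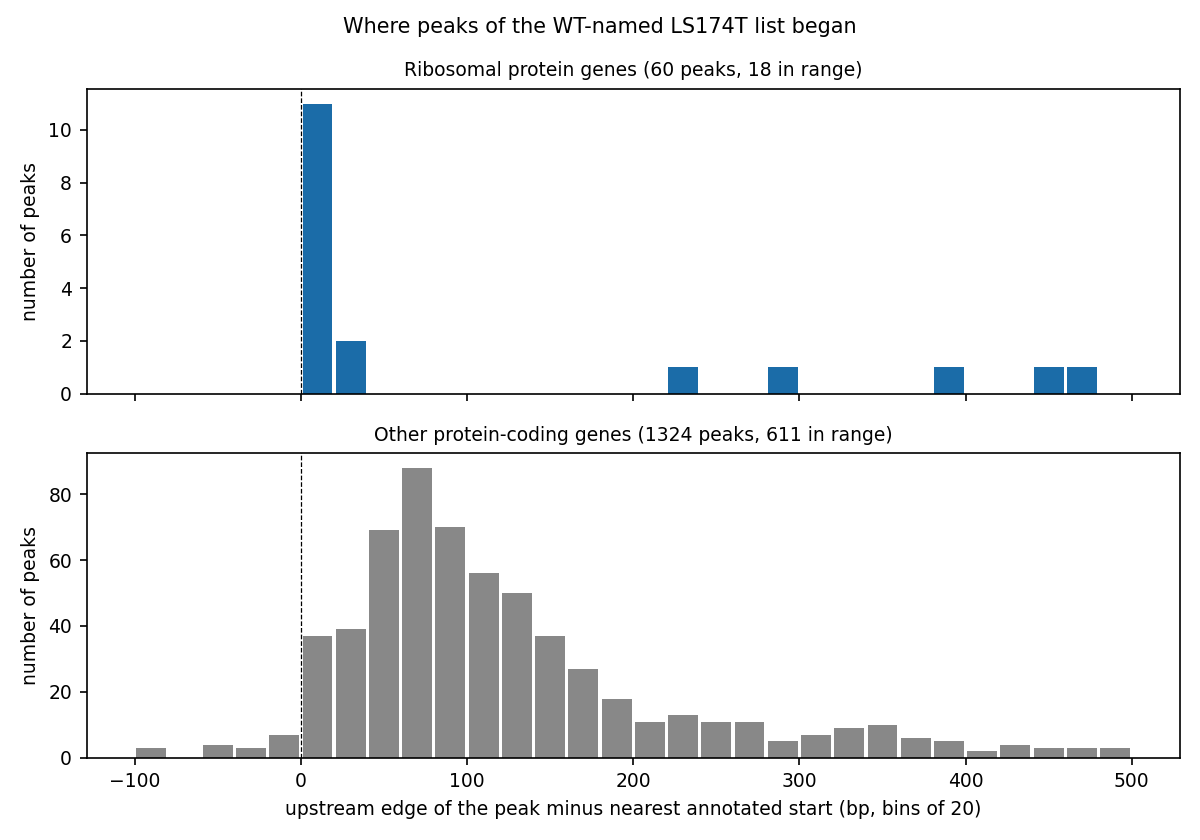
Number of WT-named peaks by the distance from the nearest annotated start to the upstream edge of the peak, in bins of 20 bp, for ribosomal protein genes (top) and other protein-coding genes (bottom); the dashed line is the start. Member peaks pile up in the bin just past the start, which holds most of the 14 member peaks with a summit within 300 bp of it, while peaks of other genes are most frequent farther downstream.

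The starts of members held the pyrimidine run more often than promoters at large. The motif was a stretch of at least 6 bases of C and T on the gene's strand that touched the 4 bases on either side of the start. It was found in 57 of the 79 promoters that the RefSeq table lists for 64 members (72.2%), against 7371 of 35116 promoters in all (21.0%). The median run was 10 against 3 bases. A gene can have several promoters, and members without one in that table were not examined. On the other strand, as A and G, the run was found in 5 of these 79 promoters and in 17.0% of all promoters. All 11 starts printed above held it, with runs of 6 bases at RPL12 to 17 at RPLP2. By gene, 53 of 64 members had the run at some annotated start, against 4219 of 15843 protein-coding genes (26.6%). It was thus present at most of the 64 members examined, whether or not a peak began there.

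Reads were also found at pseudogene copies. RefSeq lists 1972 ribosomal protein pseudogenes, a median of 16 per member and up to 137, at RPL21. Together, genes and copies took 138 WT-named peaks (6.56% of the list), 46 HepG2 peaks (2.95%) and 8 KO-named peaks (17.4%). Of these, 60, 23 and 3 peaks lay in pseudogenes, each in a different one. Peaks assigned to any pseudogene, of whatever parent, numbered 127, 59 and 6 in the same lists. Because copies are nearly identical to the spliced messenger RNA, reads may have been placed at a copy or at the gene by the alignment, and values of either are uncertain to that extent.

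WT-named pseudogene peaks held a median of 11 reads (4 to 42), and HepG2 ones a median of 9 (4 to 19). Summed over the summits of called peaks, copies held 814 WT-named reads beside 2051 at the genes, 28.4% of the total (26.8 to 30.1). Reads outside the summits are left out, so this is not the share of all reads at genes and copies. The deepest RPL3 summit, for example, held 74 of 169 reads in the 10000 bp window around it. The intervals treat reads as independent and cover counting error only. The HepG2 share was 32.8% (29.3 to 36.5), from 221 and 453 reads, and the KO-named share 23.7% (16.8 to 31.8), from 32 and 103. The subunits were alike in this, with 29.2% for the large and 27.3% for the small in the WT-named list, and 31.8% and 33.8% in the HepG2 list.

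Pseudogene peaks stood more alone than gene peaks. At 30 of 60 WT-named pseudogene peaks the summit held every read of the 10000 bp window around it, against 0 of 78 member peaks and 158 of 1619 (9.76%) in other protein-coding genes. The HepG2 counts were 7 of 23, 0 of 23 and 196 of 1060 (18.5%). In the KO-named list they were 0 of 3, 1 of 5 and 2 of 14. Of the WT-named pseudogene peaks 27 of 60 lay inside the span of a protein-coding gene, such as RPL18P11 in CHRNB4, RPL4P4 in MAP3K13 and RPL29P4 in SLC35F1, and would have been counted for that host without the pseudogene annotation.

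Copies of 47 members had a WT-named peak, 37 of them beside a peak in the gene itself. In 10 of these 37 the copies held more reads than the gene, as summit reads summed over called peaks. RPL10, which joins the large subunit late in its assembly, held 14 reads at the gene and 54 at copies, 33 at RPL10P16 and 21 at RPL10P9. RPL27A held 21 at the gene and 42 at RPL27AP6, the deepest pseudogene peak. RPL13 held 22 and 30, with 25 at RPL13P12. Others of the 10 were RPL4 (15 and 23), RPL24 (9 and 14), RPL27 (11 and 12), RPL32 (9 and 14), RPS4X (12 and 16) and RPS10 (4 and 14). By all reads in the 10000 bp window around the summit, the order turned at some of them. RPL13 held 87 there against 37 at RPL13P12 and 5 at RPL13P2, RPL4 45 against 32, and RPS4X 42 against 16. It did not turn at RPL10 (38 against 43 at RPL10P16), RPL27A (43 and 48) or RPS10 (5 and 14). Among deep genes the balance of summit reads was the reverse, with 140 at RPLP1 and 30 at its copy RPLP1P4, 135 and 27 at RPL3, and 109 and 16 at RPS2. Further pseudogenes with at least 20 reads included RPL18P11 (24), RPL4P4 (23), RPS19P1 (23) and RPL29P4 (22).

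**Figure D4:**
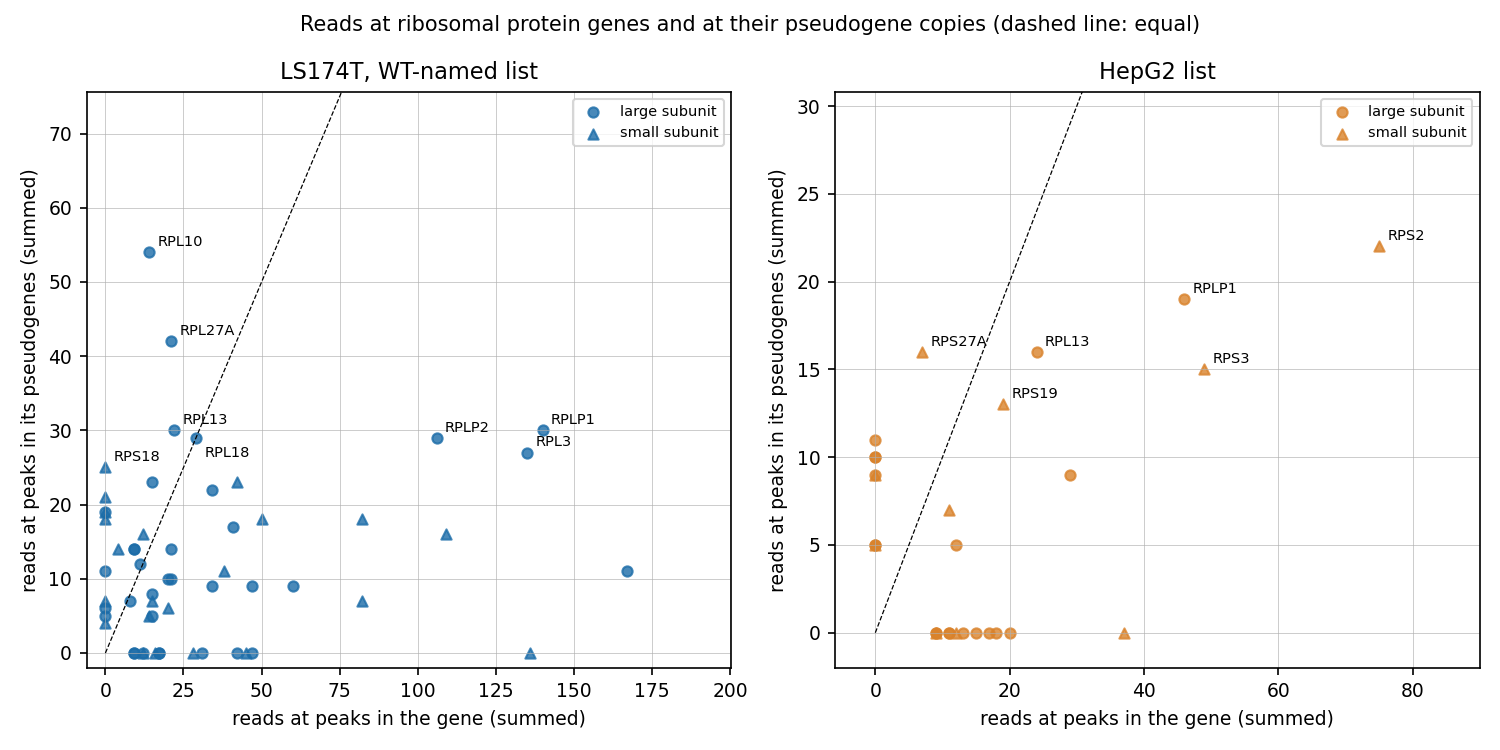
Reads summed over peaks in each ribosomal protein gene (horizontal) and over peaks in its pseudogenes (vertical), for the WT-named list (left) and the HepG2 list (right), with different scales and a dashed line at equal reads; circles are large-subunit and triangles small-subunit genes, and a few genes are not drawn. RPL10, with 14 reads at the gene and 54 at copies, lies far above the line, and points on the vertical axis are genes with peaks at copies alone.

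Some members had peaks at copies alone, and whether the reads at copies came from the gene was not tested. In the WT-named list these were 10: RPS18 with 25 reads at copies, RPS27A with 21, RPLP0 with 19, RPS7 with 19, RPS28 with 18, RPL35A with 11, RPS9 with 7, RPL6 with 6, RPL39 with 5 and RPS15A with 4. The 2 members that had a HepG2 peak and no WT-named peak, RPLP0 and RPS27A, were thus both among them. Their absence from the WT-named list holds for the gene and not for its annotated copies. In the HepG2 list 11 members had peaks at copies alone, among them RPL10, RPL13A, RPL24, RPL27A, RPL32, RPL35, RPS4X and RPS10. All 11 had a peak in the gene itself in the WT-named list. All 3 KO-named copies, RPL27AP6 with 13 reads and RPS2P46 with 8 among them, belonged to genes with no KO-named peak of their own.

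Of the ribosomal protein pseudogenes 21 had a peak in both the WT-named and the HepG2 list, 35.0% of the WT-named and 91.3% of the HepG2 ones. Over all pseudogenes with a peak these shares were 29% and 62.1%, and over the others alone 23.4% of 64 and 42.9% of 35. Peaks overlapped on the same strand at 20 of the 21, with summits a median of 7 bp apart. WT-named reads were higher at 19 of them, for example 42 and 10 at RPL27AP6, 33 and 11 at RPL10P16, and 30 and 19 at RPLP1P4. RPL35P2 held 9 in both, and RPS3P3 held 11 WT-named and 15 HepG2 reads, the same order as at the RPS3 gene. The exception in place was RPL8P3, where the lists had peaks on opposite strands, 11 WT-named and 9 HepG2 reads. The shared copies RPL10AP6, RPL13P12, RPL13AP5, RPL24P4, RPL32P18, RPS10P19, RPS12P22, RPS19P1, RPS2P46, RPS27AP12, RPS27AP16 and RPS4XP8 held 6 to 25 WT-named and 5 to 16 HepG2 reads. RPS2P10 (4 reads) and RPS2P5 (8) were in the HepG2 list only.

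No peak in any of the 3 lists was assigned to 26 members, 13 of each subunit. Of these, RPL35A, RPL39, RPL6, RPS15A, RPS18, RPS28, RPS7 and RPS9 had a peak at a copy. The other 18 had neither, among them RPL15, RPL19, RPL21, RPL22, RPL23A, RPL31, RPL36A, RPL41, RPL7, RPL9, RPS13, RPS24, RPS26, RPS27, RPS3A, RPS4Y1 and RPS4Y2. Absence from a list means that no peak passed the authors' threshold there, and reads below it are not known. RPL21, the member with the most pseudogenes, was in this group.

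Genes that work beside the members were checked from fixed lists. All 3 ribosome components with other names had a peak in the WT-named and the HepG2 list and none in the KO-named list, for example RACK1, a scaffold on the small subunit, with 46 and 18 reads, and FAU with 14 and 13. Of 21 TOP messenger RNAs that encode no ribosomal protein, 9 had a WT-named peak, 6 a HepG2 peak and 1 a KO-named peak, where 6.43%, 4.9% and 0.0848% of all protein-coding genes had one. EEF2, the elongation factor that moves the ribosome along, held 108 and 48 reads in the first pair of lists, and GAS5, a non-coding RNA that hosts small nucleolar RNAs, held 111 and 105. PABPC1 held 56 and 33, NAP1L1 20 and 9, and BTF3 18 and 13. EIF4B held 9 in the HepG2 list alone, and TPT1 held 42 in the WT-named and 16 in the KO-named list.

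Of 77 mitochondrial ribosomal proteins 4 had a WT-named peak and 5 a HepG2 peak, near the shares of 6.43% and 4.9% of all protein-coding genes, with MRPL41 in both at 12 and 19 reads. The other HepG2 members of that list were MRPL10 (5), MRPL39 (5), MRPS30 (6) and MRPS7 (9). Of 31 ribosome assembly factors 5 had a WT-named peak and 1, NHP2 with 11 reads, a HepG2 peak. Neither group had a KO-named peak, and of 8 paralogs of the members, such as the genes with an L suffix, 0 had a peak in any list.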

How the data were processed

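The study measured RNA bound in eCLIP libraries, and the analysis started from its peak lists. The submitters' processing notes name cutadapt, BWA and MACS2, and hg38 and mm10 as builds, without a version. Every peak carries 4 values that the authors deposited: a score, a ratio (fold enrichment over local background), a −log10 p-value and a −log10 q-value. The score was 10 times the −log10 q in every row.

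Reads at a summit were solved from fold and p as MACS2 defines them, with 200 bp extension and a 10000 bp window, and were unique for 2102 of 2103, 46 of 46 and 1557 of 1557 peaks. The lowest deposited −log10 q-values were 1.38, 2.17 and 1.37, so shallower sites are not listed. Summits were assigned with RefSeq gene spans of GRCh38.p14, without strand, in the order small RNA, pseudogene, shortest gene. Overlap meant at least 1 bp on the same strand. Intervals are exact Poisson or Clopper-Pearson at 95%, and those of ratios are conditional binomial. Those of medians are taken by binomial ranks from the sorted values over genes or peaks, which are not replicates. Python 3.11.15, numpy 2.4.6, pandas 2.3.3 and scipy 1.17.1 were used, and the steps were tested on simulated data.

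Members and lists were chosen with earlier results of these data known. Named were all members with a KO-named or HepG2 peak, the 15 deepest WT-named members, those with over 1 peak or a small RNA summit, and pseudogenes with at least 20 reads or in over 1 list. A few genes that this rule names are not reported here by name, though the counts include them. No p-value was computed, as no condition had replicate values. Alternatives varied the assignment order, overlap, q and read minimum, strand, the peak counted per gene and the start window.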

Additional observations from a re-analysis of the deposited data

How the results depend on the processing

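Over 12 results and 44 alternatives, 42 stayed within 1.5 times the count or within the interval. A minimum of 10 reads moved the pseudogene peaks from 60 to 36 in the WT-named list and from 23 to 11 in the HepG2 list. Members with a peak ranged from 44 to 51 (WT-named) and from 17 to 22 (HepG2), and stayed at 5 in the KO-named list. The count of peaks that begin 0 to 10 bp past a start was not planned, and it and its alternatives were chosen after seeing the data. With 0 to 25 bp, 12 WT-named member peaks and 41 others counted. No paired analysis was possible because the lists hold no values per library, although the labels number the HepG2 and liver IPs alike, and for the same reason no library could be left out. The low reads at most peaks limit every comparison of depth.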

Other observations

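Outside the ribosomal protein genes, WT-named peaks that began within 10 bp past an annotated start were in ARPC2, BRI3, COX4I1, EPHX1, HMGN1, LSM4, M6PR, PFN1, SND1, SULF2, TMSB10, TOMM20, TPT1, TXNDC5 and UBE2S. The deepest were in PFN1 (65 reads), which binds actin monomers, TMSB10 (54 reads), which also binds them, and TPT1 (42 reads), a TOP messenger RNA. The longest run of C and T at a start was 2 bases in PFN1, 7 in TMSB10 and 8 in TPT1. In the rest it ran from 2 in LSM4 to 12 in SULF2, so a run together with such an edge was not particular to members. In the HepG2 list peaks with such an edge were in GFRA1, HERPUD1, PERP, PUS3 and RAB17, and no gene was on both of these lists.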
